A study of Homo sapiens with 21 samples.

Results

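All but 1 of the 37 genes described here encode RNA polymerase I, its initiation factors or nucleolar proteins turning its transcript into ribosomal subunits. The other, PUS7, encodes a pseudouridine synthase that acts on tRNA and other RNAs, and it is counted with the pathway below. The 37 genes were picked by their known role and not by a threshold on their values, although earlier results of these data were known. They were taken by gene symbol from a count table of 66738 rows. Their RNA was measured in RS4;11, an established precursor B acute lymphoblastic leukaemia line that carries the KMT2A-AFF1 fusion. All cells were kept for 24 h in 1 of 3 media: medium lacking asparagine but given ferric nitrate (10 µM) together with hinokitiol (0.75 µM), called -Asn+Fe, the same medium without these additions (-Asn), or complete medium (+Asn). Hinokitiol is a small molecule that binds iron and carries it across membranes, and none of the groups used here received iron or hinokitiol with asparagine present. Each medium had 3 RNA-seq libraries and 3 libraries of H3K4me3, the histone mark of active promoters, all from 1 cell line. Separate cultures are not mentioned in the labels, so the p-values below measure the spread between libraries, which may be technical.

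RNA polymerase I transcribes the ribosomal DNA repeats in the nucleolus into a single precursor that holds the 18S, 5.8S and 28S rRNAs. UBTF holds the repeats open, and RRN3 brings the polymerase to the promoter. Small nucleolar ribonucleoproteins (snoRNPs) then modify the precursor, the small subunit processome folds and cuts its 18S part, and a separate set of factors, among them the PES1, BOP1 and WDR12 complex, assembles the large subunit. Proliferating leukaemia cells depend on this pathway. The transcription factor MYC is a well-known activator of many of its genes, and it binds the E-box CACGTG.

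The E-box sequences of these genes are shown first because a larger share of these promoters held the motif than of promoters in general. RefSeq windows of GRCh38.p14, from 250 bases before to 50 bases after a gene's start, were matched by symbol for 31 of the 37 genes (39 windows). CACGTG, which reads the same on both strands, was in the windows of 15 of these 31 genes (48.4%), against 8.78% of all 27305 genes in the table and 11.0% of 14906 coding genes. In all 15 genes it lay within 50 bases of the start, which held for 3.51% of all genes and 4.43% of coding genes. The wider motif CANNTG did not differ in this way, at 74.2% of the 31 genes, 73.1% of all genes and 70.5% of coding genes. A larger share was not limited to CACGTG. CCGGAAGT, a motif added after seeing the data, was in 25.8% of the 31 genes, 4.95% of all genes and 7.14% of coding genes. The nearest site of each of the 15 genes is printed below 5′ to 3′ on the gene's strand with the E-box in capitals. A match is a description of sequence and not of binding.
BYSL (chr6:41921517-41921542, plus strand): cttcagtcccCACGTGcgatccttcc
DDX21 (chr10:68956606-68956631, plus strand): ccgggtgtccCACGTGgtccccggcg
EBNA1BP2 (chr1:43172241-43172258, minus strand): gattcggtggCACGTGga
FBL (chr19:39846358-39846383, minus strand): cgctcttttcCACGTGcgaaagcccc
GNL3 (chr3:52686028-52686053, plus strand): cttcagttcaCACGTGgcgccagcgg
MYBBP1A (chr17:4555342-4555367, minus strand): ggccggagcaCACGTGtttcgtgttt
NAT10 (chr11:34105604-34105629, plus strand): tgcgcttgcgCACGTGctgtctacca
NOP14 (chr4:2963376-2963401, minus strand): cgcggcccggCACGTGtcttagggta
NOP2 (chr12:6568242-6568266, minus strand): gtccggattgCACGTGgagggccgc
PES1 (chr22:30591882-30591907, minus strand): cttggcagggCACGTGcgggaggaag
PUS7 (chr7:105522228-105522253, minus strand): cgctgcgccgCACGTGtgcgagcccg
RRP9 (chr3:51941894-51941919, minus strand): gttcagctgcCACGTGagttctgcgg
UTP20 (chr12:101280085-101280110, plus strand): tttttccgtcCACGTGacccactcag
UTP4 (chr16:69132623-69132648, plus strand): agcgcgcgcgCACGTGgggccggggc
WDR43 (chr2:28894660-28894685, plus strand): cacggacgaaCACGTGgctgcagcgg

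**Figure D1:**
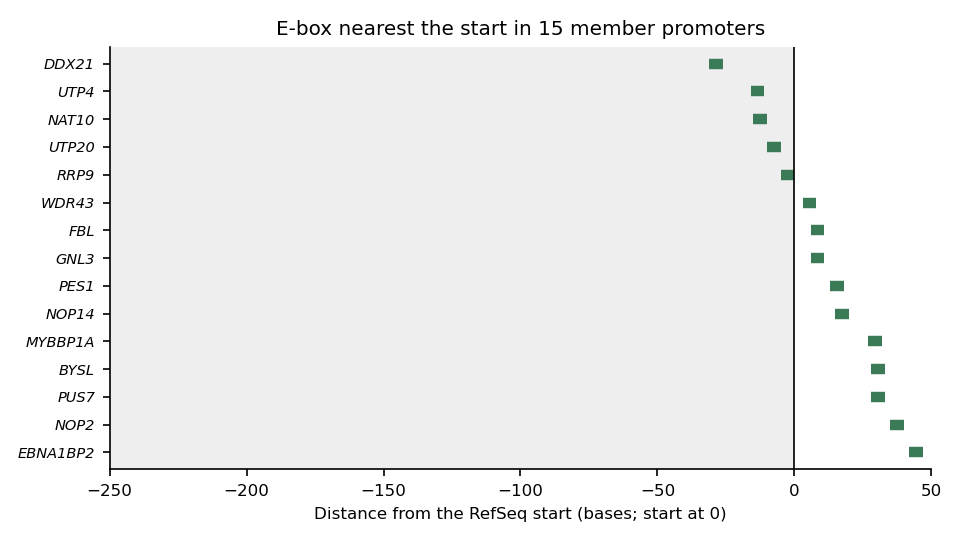
Position of the nearest CACGTG in the 15 promoters that hold one, in bases from the RefSeq start at 0. Grey marks the upstream 250 bases, green bars are the 6 bases of the motif, and every bar lies within 50 bases of the start.

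Both an E-box promoter and one without the motif can be read in full, since neither upstream window overlaps an annotated exon. UTP20 encodes a scaffold protein of the small subunit processome, and its 250 bases before the start (chr12:101279855-101280104, plus strand) end in the E-box. NCL encodes nucleolin, and its 250 bases (chr2:231464485-231464734, minus strand) hold no CACGTG. RNA of both genes was lower in -Asn than in +Asn libraries, as described below.
UTP20: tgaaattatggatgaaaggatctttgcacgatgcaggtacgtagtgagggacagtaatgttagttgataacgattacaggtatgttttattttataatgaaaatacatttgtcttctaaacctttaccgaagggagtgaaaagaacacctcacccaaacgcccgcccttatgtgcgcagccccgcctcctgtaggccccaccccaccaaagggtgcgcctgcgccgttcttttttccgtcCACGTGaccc
NCL: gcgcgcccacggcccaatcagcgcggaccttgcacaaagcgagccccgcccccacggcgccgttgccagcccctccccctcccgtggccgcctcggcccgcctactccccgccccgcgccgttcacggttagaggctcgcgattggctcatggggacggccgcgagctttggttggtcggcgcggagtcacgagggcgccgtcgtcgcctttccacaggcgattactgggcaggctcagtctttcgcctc

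Library depth was 29362707 to 42478518 counts in -Asn+Fe, 36773377 to 41898475 in -Asn and 39155120 to 40988303 in +Asn. The -Asn replicate 1 library stood apart from its 2 partners, with a chi-square per degree of freedom of 42.6 and 47.0 against 6.36 between those 2, and results that change without it are given with both values. The 12 precursor B markers were all detected, with summed levels of 2499 to 2592 CPM (counts scaled to a common library size) in -Asn+Fe, 2807 to 2904 CPM in -Asn and 3022 to 3103 CPM in +Asn. Of these 12, 7 fell and 4 rose in -Asn against +Asn, beside 30.2% and 31.0% of all tested genes. Summed myeloid markers (5 genes) were at 1.33 to 1.79 CPM in -Asn+Fe, 1.15 to 1.33 CPM in -Asn and 1.99 to 2.46 CPM in +Asn, and summed erythroid markers (4 genes) never passed 0.0885 CPM. The T-cell list (6 genes) summed to 254 to 275 CPM in -Asn+Fe, 299.6 to 369.8 in -Asn and 341 to 363 in +Asn, nearly all of it TRAC. The 5 stroma and epithelium markers summed to 3.37 to 3.87 CPM in -Asn+Fe, 2.67 to 4.25 CPM in -Asn and 12.2 to 14.3 CPM in +Asn, with PECAM1 alone at 1.80 CPM in -Asn+Fe, 1.34 CPM in -Asn and 10.4 CPM in +Asn. The part of these differences in the results was not tested, and in bulk RNA fewer cells of a type and less RNA per cell cannot be told apart.

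Most of the pathway was lower without asparagine. Of the 36 genes with enough counts to test, 29 (80.6%) fell in -Asn against +Asn and 1 (RRS1) rose, at an adjusted p under 0.05 in edgeR's quasi-likelihood test over 17939 genes. Across all tested genes the shares were 30.2% lower and 31.0% higher. The median log2 fold change was -0.63 over the 36 genes and 0.04 over all genes. In 31 of the 36 genes every -Asn library lay below every +Asn library, as in 32.1% of all genes. Summed over the pathway, RNA amounted to 7663, 6614 and 6972 CPM in -Asn libraries and 10947, 11781 and 11706 CPM in +Asn libraries, without overlap. NCL and NPM1 supplied 3148 ± 395 CPM of this in -Asn and 5284 ± 323 CPM in +Asn (SD, n = 3 each). The other genes summed to 3935 ± 139 CPM in -Asn and 6195 ± 139 CPM in +Asn.

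Scaling moved the split of calls. Normalised by library totals instead of TMM factors, all genes gave 7335 higher and 3840 lower calls, against 5558 and 5413, and the median of all genes shifted by 0.21. Under that scaling 26 of the pathway genes still fell and their median was -0.43, while POLR1C, NOP58 and PES1 no longer passed.

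Between -Asn+Fe and -Asn, which differ by iron and hinokitiol, the pathway had no common direction. Of the 36 genes, 5 (13.9%) rose and 8 (22.2%) fell in -Asn+Fe against -Asn, beside 14.0% and 16.8% of all genes. With the stricter count filter 21.7% of all genes rose and 22.1% fell. The median log2 fold change was -0.06 over the 36 genes and -0.01 over all genes. Those that rose were NOP2, PPAN, WDR43, POLR1B and DDX21. Those that fell were TCOF1, EBNA1BP2, BOP1, DDX10, DKC1, NOP14, NOP56 and NAT10. Without -Asn replicate 1, NOP2, POLR1B and PPAN no longer passed (adjusted p = 0.109, 0.0517 and 0.0713 in edgeR), which left 2 higher calls, all 8 lower calls and a median of 0.0031. With the replicate number as a block, 1 gene was called higher and 6 lower. Under library totals all genes gave 3023 higher and 2488 lower calls, against 2506 and 3020.

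Most of the pathway was also lower in -Asn+Fe than in complete medium. Of the 36 genes, 32 (88.9%) fell and 1 (PPAN) rose in -Asn+Fe against +Asn, while 31.9% of all genes fell and 32.9% rose. With the stricter count filter the shares of all genes were 37.4% and 38.2%. The median was -0.63 over the 36 genes and 0.05 over all genes. In 32 of the 36 genes every -Asn+Fe library lay below every +Asn library, as in 34.6% of all genes. Pathway RNA summed to 6699, 6901 and 6326 CPM in -Asn+Fe libraries, again below all 3 +Asn libraries. Normalised by library totals, 22 of the 36 genes fell with a median of -0.37 (RRP12, NOP58, PES1, NOP56, BYSL, UTP4, DDX21, POLR1C, DDX10 and NPM1 no longer passed), and all genes split into 8060 higher and 3989 lower calls with their median shifted by 0.25. The 3 comparisons share their groups of libraries, so they are not independent of each other.

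**Figure D2:**
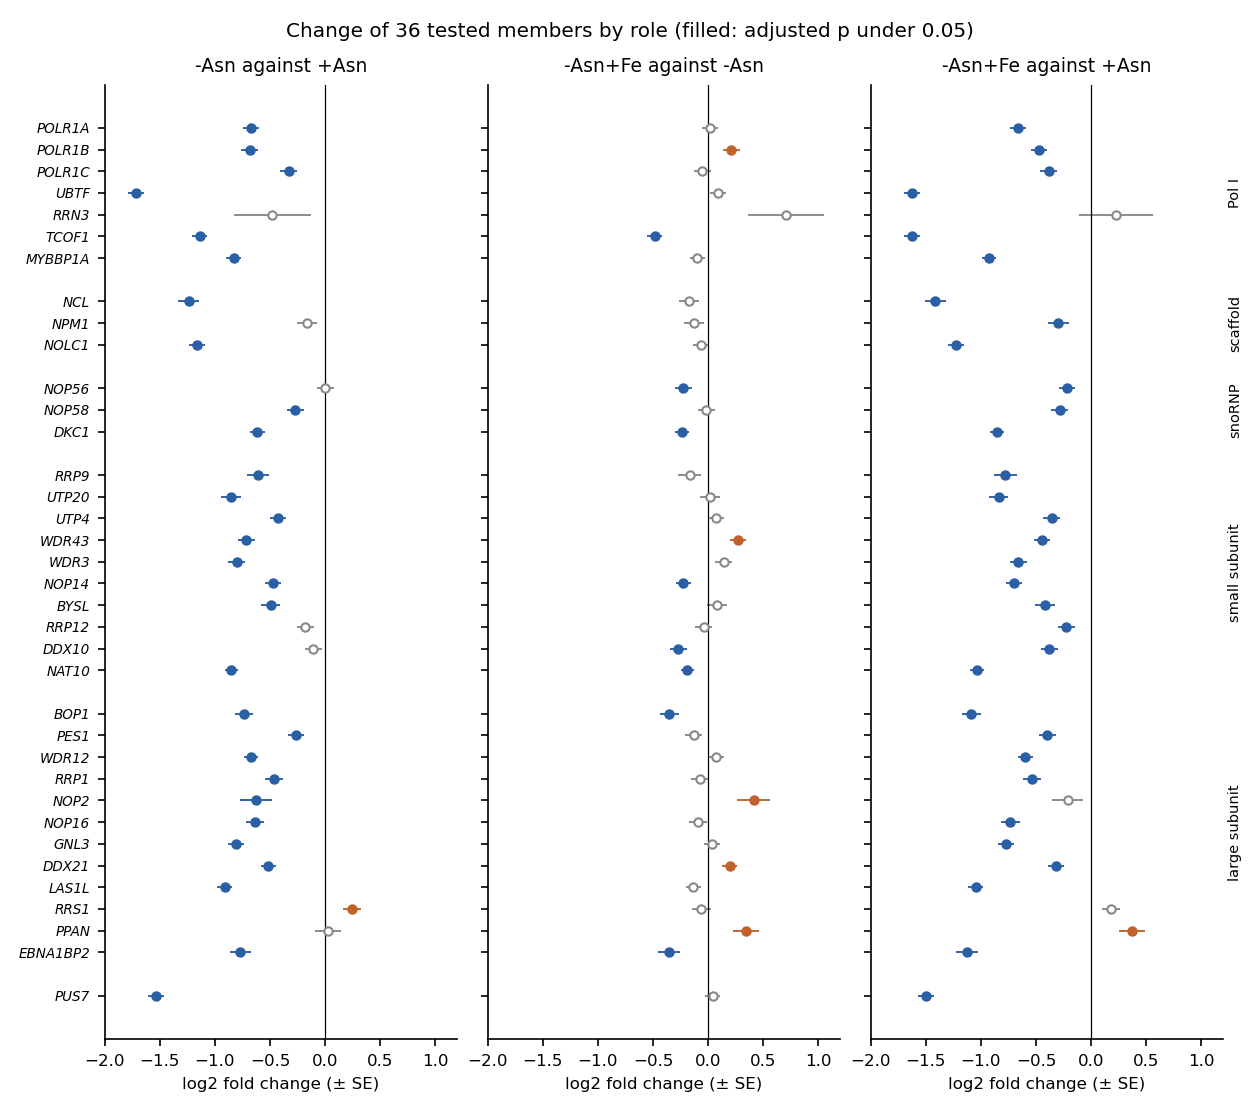
Log2 fold change (point) and its standard error (bar) of the 36 tested genes in each comparison, grouped by role. Filled points passed an adjusted p of 0.05, blue lower and orange higher, and in the left and right panels nearly all points lie left of 0, while in the middle panel they lie around 0 with a median of -0.06.

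The machinery of RNA polymerase I transcription was represented by 7 genes, of which 6 fell in -Asn against +Asn (median log2 fold change -0.69) and 6 in -Asn+Fe against +Asn (-0.66). Over all tested genes 30.2% and 31.9% fell in these comparisons. UBTF (chr17:44205033-44221626, minus strand, hg38) encodes the factor that binds and opens the ribosomal repeats. Its RNA stood at 106, 118 and 105 CPM in -Asn+Fe libraries, 107, 101 and 102 CPM in -Asn libraries, and 316, 359 and 341 CPM in +Asn libraries. The asparagine-free media overlapped each other and both lay far below +Asn. UBTF had the lowest fold change of the 36 genes in -Asn against +Asn, with a log2 value of -1.72 ± 0.07 (SE, adjusted p = 6.16e-12 in edgeR) or 69.5% less RNA, and -Asn+Fe against -Asn differed by 0.09 ± 0.07 (adjusted p = 0.391).

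TCOF1 (chr5:150357629-150400308, plus strand) encodes treacle, which joins ribosomal DNA transcription to rRNA modification. Its RNA stood at 3 separate levels. Values were 95.2, 106 and 99.7 CPM in -Asn+Fe, 151, 136 and 134 CPM in -Asn, and 305, 309 and 313 CPM in +Asn, with no overlap between any 2 media. The log2 fold change was -1.14 ± 0.07 in -Asn against +Asn (adjusted p = 4.56e-10), -0.48 ± 0.07 in -Asn+Fe against -Asn (6.36e-05) and -1.63 ± 0.07 in -Asn+Fe against +Asn (4.11e-12), all by edgeR. It was the one pathway gene called lower in -Asn+Fe against -Asn under all 18 other settings tried.

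POLR1A and POLR1B encode the 2 large catalytic subunits. POLR1A (chr2:86020216-86106155, minus strand) was measured at 146, 149 and 149 CPM in -Asn+Fe, 131.5, 159.7 and 149 CPM in -Asn, and 235, 228 and 239.8 CPM in +Asn. All asparagine-free libraries lay below all +Asn libraries, by a log2 value of -0.68 ± 0.07 in -Asn (adjusted p = 4.88e-07) and -0.66 ± 0.07 in -Asn+Fe (5.07e-07). For POLR1B (chr2:112541915-112577150, plus strand) the libraries gave 84.9, 92.0 and 84.4 CPM in -Asn+Fe, 67.9, 75.5 and 82.1 CPM in -Asn, and 120.9, 117 and 125 CPM in +Asn. It fell by 0.69 ± 0.08 in -Asn against +Asn (adjusted p = 6.15e-07) and was higher by 0.21 ± 0.08 in -Asn+Fe than in -Asn (0.043), a call that 11 other settings ended.

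POLR1C, a subunit shared with RNA polymerase III, averaged 27.7 ± 1.27 CPM in -Asn+Fe, 28.8 ± 1.14 CPM in -Asn and 36.2 ± 1.68 CPM in +Asn (SD, n = 3 each). MYBBP1A, a nucleolar MYB-binding protein, averaged 77.4 ± 4.45, 82.7 ± 1.87 and 147 ± 3.11 CPM in -Asn+Fe, -Asn and +Asn. Both fell in each asparagine-free medium against +Asn. RRN3 (chr16:15060022-15094317, minus strand) was the exception, but it rests on few reads: 1.48, 0.482 and 1.02 CPM in -Asn+Fe, 0.640, 0.712 and 0.530 CPM in -Asn, and 0.749, 1.09 and 0.784 CPM in +Asn. None of its 3 comparisons passed, with log2 values of -0.48 ± 0.35 in -Asn against +Asn, 0.70 ± 0.35 in -Asn+Fe against -Asn and 0.22 ± 0.34 in -Asn+Fe against +Asn (edgeR adjusted p = 0.255, 0.136 and 0.577). Another RRN3 row, on an alternate contig, held 8 to 34 counts per library, and the pseudogene RRN3P1 held more RNA than the gene, at 34.03, 31.3 and 30.4 CPM in -Asn+Fe, 26.6, 25.97 and 23.4 CPM in -Asn, and 11.2, 12.9 and 10.2 CPM in +Asn. The level of RRN3 is uncertain, since the sources used here do not say how reads that fit several copies were counted.

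Among the nucleolar scaffold genes, NCL and NOLC1 fell by similar amounts against +Asn, while NPM1 changed less. NCL (chr2:231453531-231483641, minus strand), which encodes nucleolin, an RNA chaperone of the precursor, gave 1281, 1302 and 1169 CPM in -Asn+Fe, 1588, 1259 and 1391 CPM in -Asn, and 3055, 3503 and 3448 CPM in +Asn. The asparagine-free media overlapped and both lay far below +Asn, by -1.24 ± 0.09 in -Asn (adjusted p = 5.97e-09) and -1.42 ± 0.09 in -Asn+Fe (8.68e-10). NPM1, which encodes nucleophosmin, the main protein of the outer nucleolus, gave 1626, 1660 and 1469 CPM in -Asn+Fe, 1992, 1547 and 1667 CPM in -Asn, and 1858, 2005 and 1981 CPM in +Asn. The last 2 overlapped, with a log2 value of -0.17 ± 0.09 that did not pass (adjusted p = 0.128), and passed without -Asn replicate 1 at -0.28 (adjusted p = 0.000182). NPM1 fell by 0.30 ± 0.09 in -Asn+Fe against +Asn (adjusted p = 0.0095), but did not pass with library totals (-0.04, adjusted p = 0.656), upper-quartile factors (-0.09, 0.415) or the stricter count filter (-0.13, 0.221).

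Per kilobase of exon, NPM1 and NCL were the most abundant RNAs of the pathway in each medium. In +Asn the 2 were close, at 509 ± 20.6 RPKM (CPM divided by exon length in kilobases) for NPM1 and 489 ± 35.8 RPKM for NCL (SD, n = 3). In -Asn, NPM1 was at 453 and NCL at 207 RPKM, and in -Asn+Fe they were at 414 and 183 RPKM. NOLC1 (chr10:102152176-102163871, plus strand), a snoRNP chaperone that partners treacle, was at 249.3, 249.6 and 236.5 CPM in -Asn+Fe, 275, 238 and 255 CPM in -Asn, and 548, 597 and 579 CPM in +Asn. It fell by 1.16 ± 0.07 in -Asn (adjusted p = 5.49e-10) and by 1.23 ± 0.07 in -Asn+Fe against +Asn (1.95e-10), and none of the 3 scaffold genes passed in -Asn+Fe against -Asn.

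**Figure D3:**
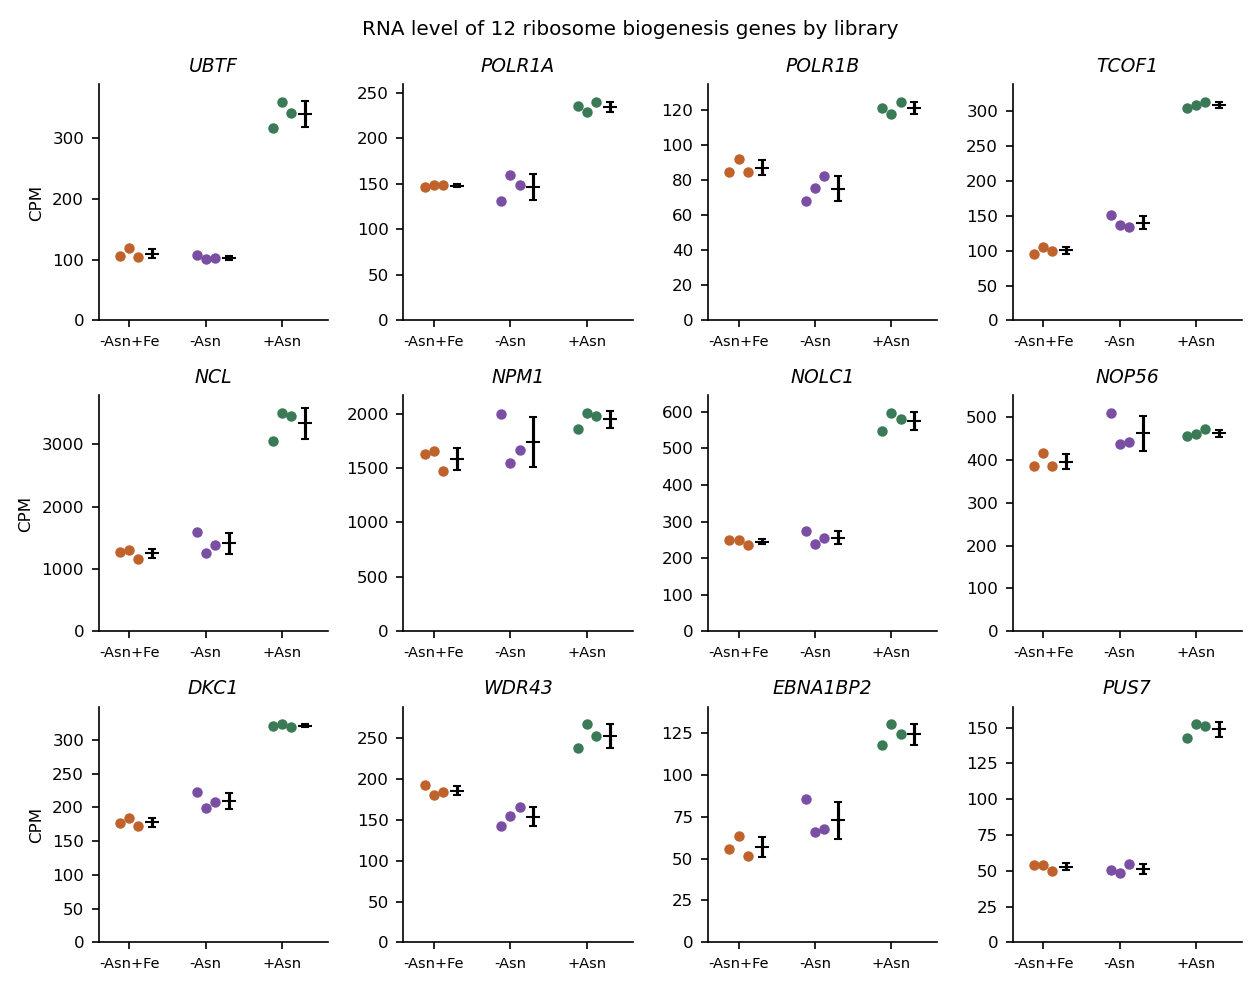
CPM per library (points), with mean and SD beside them (n = 3), for 12 genes in -Asn+Fe, -Asn and +Asn; each axis starts at 0. UBTF, NCL, NOLC1 and PUS7 show 2 low media and 1 high one, TCOF1 shows 3 separate levels, and NOP56 and NPM1 show the smallest gaps between media.

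The snoRNP core proteins guide chemical marks on rRNA. DKC1, the pseudouridine synthase of box H/ACA particles, gave 176, 184 and 172 CPM in -Asn+Fe, 222, 199 and 207 CPM in -Asn, and 320.1, 323 and 319 CPM in +Asn, with no overlap between media. It fell by 0.62 ± 0.07 in -Asn against +Asn (adjusted p = 4.29e-07) and by 0.24 ± 0.07 in -Asn+Fe against -Asn (0.0115). The second call did not pass without -Asn+Fe replicate 1 (edgeR adjusted p = 0.0538) or replicate 3 (0.0619). NOP56, a box C/D scaffold, gave 385, 415 and 386 CPM in -Asn+Fe, 509, 435 and 442 CPM in -Asn, and 454, 459 and 471 CPM in +Asn. The last 2 media overlapped, and their difference was 0.00 ± 0.07 (adjusted p = 0.983). In -Asn+Fe, NOP56 fell by 0.22 ± 0.07 against -Asn (adjusted p = 0.03) and by 0.22 ± 0.07 against +Asn (0.0146). The first of these did not pass in 9 other settings, the replicate block among them (0.0544). Under library totals NOP56 was 0.21 higher in -Asn than in +Asn (adjusted p = 0.0151) and 0.03 higher in -Asn+Fe than in +Asn, which did not pass. NOP58, its partner, averaged 202 ± 6.90, 205 ± 20.7 and 247 ± 9.98 CPM in -Asn+Fe, -Asn and +Asn. FBL, the rRNA methyltransferase fibrillarin (chr19:39834458-39846379, minus strand), was listed with 1, 2 and 1 counts in -Asn+Fe, 2, 1 and 1 in -Asn, and 7, 6 and 1 in +Asn, and was not tested. Another full copy of FBL lies on an alternate contig in the count table, with 0 counts in each library. What these counts say of FBL expression was not tested.

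Of the 10 genes of the small subunit processome, 8 fell in -Asn against +Asn (median -0.55) and all 10 in -Asn+Fe against +Asn (-0.55), where RRP12 turned to 0.03 under library totals. The shares of all tested genes that fell were 30.2% and 31.9%. NAT10, the acetyltransferase of 18S rRNA, averaged 118 ± 4.70 CPM in -Asn+Fe, 134 ± 2.79 CPM in -Asn and 242 ± 1.12 CPM in +Asn. It fell by 0.19 in -Asn+Fe against -Asn (adjusted p = 0.03 in edgeR). That call did not pass in many other settings, among them library totals (0.0919) and the replicate block (0.0593). UTP20 averaged 109.6 ± 4.24, 108 ± 15.8 and 196 ± 8.95 CPM in -Asn+Fe, -Asn and +Asn. The WD-repeat proteins WDR3 and WDR43 belong to the same particle, and WDR3 averaged 87.5 ± 3.07, 79.2 ± 7.11 and 138 ± 7.81 CPM in -Asn+Fe, -Asn and +Asn. WDR43 gave 192, 181 and 184 CPM in -Asn+Fe, 142, 155 and 165 CPM in -Asn, and 238, 268 and 253 CPM in +Asn. Its 3 media did not overlap: it fell by 0.71 ± 0.07 in -Asn against +Asn (adjusted p = 2.56e-07) and rose by 0.27 ± 0.07 in -Asn+Fe against -Asn (0.00976).

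The other processome genes moved less. RRP9 (a U3 snoRNP protein), UTP4 (cirhin), BYSL (bystin) and NOP14 fell in both asparagine-free media against +Asn, with log2 values from -0.61 to -0.43 in -Asn. NOP14 also fell by 0.23 in -Asn+Fe against -Asn. That call did not pass in some other settings, among them upper-quartile factors (edgeR adjusted p = 0.0749) and without -Asn+Fe replicate 3 (0.104). DDX10, an RNA helicase, gave 56.7, 59.6 and 55.8 CPM in -Asn+Fe, 72.5, 65.7 and 69.6 CPM in -Asn, and 65.97, 79.5 and 78.7 CPM in +Asn, so that the last 2 media overlapped. It did not pass in -Asn against +Asn (-0.11 ± 0.08, adjusted p = 0.241) and fell by 0.27 ± 0.08 in -Asn+Fe against -Asn (0.0153). The latter did not pass without -Asn+Fe replicate 1 (edgeR adjusted p = 0.0642) or replicate 3 (0.0683). RRP12, whose yeast counterpart works in subunit export, averaged 70.9 ± 6.76, 72.9 ± 3.42 and 82.7 ± 4.96 CPM in -Asn+Fe, -Asn and +Asn, and its -0.18 ± 0.08 in -Asn against +Asn did not pass (adjusted p = 0.053) but did in 8 other settings, among them DESeq2 (0.0313) and without -Asn replicate 1 (-0.22, adjusted p = 0.00747). UTP4 also has a row on an alternate contig with at most 16 counts per library. Exons of NOP14 and WDR3 overlap genes on the other strand over 20.7% and 17.1% of their bases. So do those of POLR1C (18.3%), NOP16 (19.8%) and EBNA1BP2 (18.8%), and whether the counts used strand is not given in the sources used here.

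Among 12 genes of large subunit assembly, 10 fell and 1 rose in -Asn against +Asn (median -0.63), and 9 fell and 1 rose in -Asn+Fe against +Asn (-0.57). Shares over all tested genes were 30.2% lower and 31.0% higher in the first comparison, and 31.9% and 32.9% in the second. LAS1L, the endonuclease that cuts the internal spacer next to 28S rRNA, averaged 57.4 ± 2.34 CPM in -Asn+Fe, 63.04 ± 3.75 CPM in -Asn and 119 ± 4.45 CPM in +Asn. GNL3, the nucleolar GTPase nucleostemin, averaged 196 ± 9.25, 192 ± 14.4 and 336 ± 13.4 CPM in -Asn+Fe, -Asn and +Asn. EBNA1BP2, whose yeast counterpart works in large subunit assembly, gave 55.6, 63.4 and 51.6 CPM in -Asn+Fe, 85.3, 65.7 and 67.4 CPM in -Asn, and 118, 130.3 and 124 CPM in +Asn. No media overlapped, and it fell by 0.77 ± 0.10 in -Asn against +Asn (adjusted p = 3.29e-06) and by 0.36 ± 0.10 in -Asn+Fe against -Asn (0.0114). The second call did not pass without -Asn+Fe replicate 3 (edgeR adjusted p = 0.0698).

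The PES1, BOP1 and WDR12 complex is needed for maturation of 28S and 5.8S rRNA, and its 3 genes fell in both asparagine-free media against +Asn. BOP1 gave 65.6, 73.6 and 65.8 CPM in -Asn+Fe, 97.6, 85.8 and 78.2 CPM in -Asn, and 152, 139 and 144 CPM in +Asn. Its 3 media did not overlap, with log2 values of -0.73 ± 0.08 in -Asn against +Asn (adjusted p = 7.57e-07) and -0.35 ± 0.08 in -Asn+Fe against -Asn (0.00413). The partners gave -0.67 for WDR12 and -0.27 for PES1 in -Asn against +Asn, and neither passed in -Asn+Fe against -Asn. PES1 had the smallest change of the 3, and it no longer passed when library totals were used (adjusted p = 0.473). NOP16 and RRP1, known from yeast as large subunit factors, fell in -Asn and in -Asn+Fe against +Asn, by 0.64 and 0.46 in -Asn.

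DDX21, an RNA helicase active in both RNA polymerase I and II transcription, gave 557, 551 and 515 CPM in -Asn+Fe, 462, 461 and 495 CPM in -Asn, and 645, 693 and 688 CPM in +Asn. It fell by 0.52 ± 0.07 in -Asn against +Asn (adjusted p = 6.2e-06) and rose by 0.20 ± 0.07 in -Asn+Fe against -Asn (0.0411), and no media overlapped. The second call ended in 9 other settings, the replicate block among them (0.0757). NOP2, an rRNA methyltransferase (chr12:6556863-6568691, minus strand), gave 3.83, 3.54 and 4.65 CPM in -Asn+Fe, 2.69, 3.22 and 3.11 CPM in -Asn, and 4.49, 4.57 and 4.87 CPM in +Asn. It fell by 0.63 ± 0.15 in -Asn against +Asn (adjusted p = 0.00136) and was higher by 0.41 ± 0.15 in -Asn+Fe than in -Asn (0.0428), while -Asn+Fe and +Asn overlapped. The second call did not pass in many other settings, among them DESeq2 (0.0675) and the replicate block (0.0538). The level of NOP2 is uncertain, because 54.4% of its exon bases are shared with another gene on the same strand.

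RRS1 and PPAN did not follow the rest. RRS1, a 5S RNP assembly factor, gave 82.6, 83.8 and 78.6 CPM in -Asn+Fe, 96.7, 78.0 and 81.1 CPM in -Asn, and 76.4, 67.0 and 73.1 CPM in +Asn. Both asparagine-free media lay above +Asn, and the difference passed in -Asn against +Asn (0.24 ± 0.08, adjusted p = 0.019) but not in -Asn+Fe against +Asn (0.18 ± 0.08, adjusted p = 0.0693). RRS1 in -Asn+Fe passed in 7 other settings, among them library totals (0.43, adjusted p = 0.000197) and without -Asn replicate 1 (0.19, adjusted p = 0.00515). Without -Asn replicate 1, +Asn replicate 2 or +Asn replicate 3 the difference in -Asn against +Asn did not pass (adjusted p = 0.0593, 0.138 and 0.0667 in edgeR). PPAN, a large subunit factor in yeast, gave 22.6, 27.7 and 24.6 CPM in -Asn+Fe, 18.4, 21.3 and 19.2 CPM in -Asn, and 23.0, 15.6 and 19.3 CPM in +Asn. The first and the last overlapped, although PPAN passed as higher in -Asn+Fe against +Asn (0.37 ± 0.12, adjusted p = 0.0133), a call that ended without +Asn replicate 2 (0.108) or -Asn+Fe replicate 2 (0.0706). PPAN shares 49.2% of its exon bases with the read-through gene PPAN-P2RY11 and P2RY11.

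PUS7 (chr7:105439661-105522271, minus strand) encodes a pseudouridine synthase that acts on tRNA and other RNAs. It gave 54.3, 54.1 and 49.9 CPM in -Asn+Fe, 50.9, 48.2 and 54.8 CPM in -Asn, and 143, 153 and 151 CPM in +Asn. The asparagine-free media overlapped each other and lay far below +Asn. The log2 value was -1.54 ± 0.07 in -Asn against +Asn (adjusted p = 1.52e-11), or 65.5% less RNA, and 0.04 ± 0.07 in -Asn+Fe against -Asn (0.714).

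Lower RNA was found both with and without an E-box near the start. Of the 15 genes with CACGTG, 14 were tested and all 14 fell in -Asn against +Asn, with a median of -0.67. Of the 16 without it, all were tested, 11 fell and the median was -0.63, with UBTF and NCL among them. The medians in -Asn+Fe against -Asn were 0.02 with the motif and -0.07 without it. Against +Asn, 13 of 14 genes with the motif fell (median -0.74) in -Asn+Fe, and 14 of 16 without it fell and 1 rose (median -0.57). Over all tested genes 30.2% fell in -Asn and 31.9% in -Asn+Fe, each against +Asn. The difference between the 2 sets of genes was not tested.

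The RNA of MYC itself was 246, 238 and 238 CPM in -Asn+Fe, 288, 246 and 259 CPM in -Asn, and 386, 380.4 and 367 CPM in +Asn. MYC fell by 0.52 ± 0.07 in -Asn (adjusted p = 6.94e-06) and by 0.65 ± 0.07 in -Asn+Fe against +Asn (3.96e-07), and -Asn+Fe differed from -Asn by -0.14, which did not pass (0.154). Of 11 tested genes of the MYC network, 6 rose and 3 fell in -Asn against +Asn, and 4 rose and 4 fell in -Asn+Fe against +Asn. All tested genes gave 31.0% higher and 30.2% lower in the first comparison, and 32.9% and 31.9% in the second. MXD1, which competes with MYC for its partner MAX, averaged 69.2 ± 3.76 CPM in -Asn+Fe, 41.0 ± 4.12 CPM in -Asn and 17.3 ± 1.26 CPM in +Asn. It rose by 1.25 ± 0.09 in -Asn against +Asn (adjusted p = 2.86e-09) and by a further 0.75 ± 0.08 in -Asn+Fe against -Asn (4.79e-06). MGA and MXI1, which also pair with MAX, rose by 0.43 and 0.38 in -Asn, while MLXIP and MNT fell by 0.62 and 0.19. Under library totals MNT turned to 0.02 and did not pass (adjusted p = 0.863).

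Other genes of the same steps, from lists that leave out the 37, fell as well but in smaller shares. In -Asn against +Asn, 27 of 43 other small subunit processome genes fell and 4 rose (median -0.37), as did 30 and 6 of 45 other large subunit genes (-0.34). Among 16 other snoRNP genes 10 fell and 2 rose (-0.31). Over all genes 30.2% fell and 31.0% rose in -Asn, and 31.9% fell in -Asn+Fe, each against +Asn. Lower calls in -Asn+Fe against +Asn were 28 of 43, 28 of 45 and 12 of 16, and between -Asn+Fe and -Asn 6 of 43 fell and 4 rose, 10 of 45 fell and 3 rose, and 5 of 16 fell, beside 16.8% lower and 14.0% higher over all genes. LYAR, a nucleolar regulator of rRNA processing, averaged 31.1 ± 4.23 CPM in -Asn+Fe, 32.6 ± 5.12 CPM in -Asn and 85.5 ± 7.25 CPM in +Asn. NHP2, a box H/ACA protein that partners DKC1, averaged 35.5 ± 4.33, 44.6 ± 6.61 and 119 ± 10.9 CPM in -Asn+Fe, -Asn and +Asn. WDR36 and NOL11 of the processome fell by 0.96 and 0.87 in -Asn against +Asn, and URB2 of the large subunit path by 0.98. In the opposite direction UTP3, FCF1 and NOP53 rose by 0.37, 0.36 and 0.64.

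Other RNA polymerase I and ribosomal DNA factors split. Of 11 tested, 4 fell and 3 rose in -Asn against +Asn, with a median of -0.09, against 6 of the 7 named above. The shares over all tested genes were 30.2% lower and 31.0% higher. The polymerase subunit genes CD3EAP and POLR1E averaged 12.98 ± 0.182 and 17.7 ± 0.917 CPM in -Asn+Fe, 15.9 ± 2.94 and 19.9 ± 1.42 CPM in -Asn, and 50.9 ± 1.73 and 59.2 ± 3.13 CPM in +Asn. CD3EAP fell by 1.68 ± 0.10 and POLR1E by 1.57 ± 0.08 in -Asn against +Asn (adjusted p = 5.32e-10 and 5.02e-11 in edgeR), close to UBTF. TTF1, the factor that ends ribosomal DNA transcription, moved otherwise: it averaged 70.2 ± 4.06 CPM in -Asn+Fe, 132 ± 14.8 CPM in -Asn and 109.5 ± 7.73 CPM in +Asn. It rose by 0.27 ± 0.08 in -Asn against +Asn (adjusted p = 0.0115) and fell by 0.91 ± 0.09 in -Asn+Fe against -Asn (6.86e-07). TWISTNB, another subunit gene, rose by 0.52 ± 0.07 in -Asn+Fe against -Asn (adjusted p = 3.68e-05).

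Subunits of the other polymerases fell too. Of 12 RNA polymerase II subunit genes 9 fell in -Asn against +Asn (median -0.42), 6 in -Asn+Fe against -Asn (-0.25), and all 12 fell in -Asn+Fe against +Asn (-0.61). Of 19 RNA polymerase III genes 12 fell and 3 rose in -Asn against +Asn (-0.45), and 14 and 3 in -Asn+Fe against +Asn (-0.48). POLR3G fell by 1.90 ± 0.11, and POLR3C rose by 1.23 ± 0.07, at 164 CPM in -Asn+Fe, 184 CPM in -Asn and 78.5 CPM in +Asn. Among 15 genes of the nuclear exosome, which trims rRNA precursors, 9 fell and 3 rose in -Asn against +Asn (-0.28), and 11 and 3 in -Asn+Fe against +Asn (-0.49). For all tested genes, 30.2% fell and 31.0% rose in -Asn, and 31.9% and 32.9% in -Asn+Fe, against +Asn. In -Asn+Fe against -Asn 16.8% of all genes fell. The 3 rRNA rows of the table held too few counts to test.

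Among cytosolic ribosomal protein genes, whose products the pathway assembles, more rose than fell in -Asn. Of 77 tested, 34 (44.2%) rose, 4 (5.19%) fell and 39 were not called in -Asn against +Asn (median 0.26). Over all genes 31.0% rose and 30.2% fell. Between -Asn+Fe and -Asn 5 fell (-0.18), beside 16.8% of all genes. In -Asn+Fe against +Asn 8 rose and 7 fell (0.04), beside 32.9% and 31.9% of all genes. RPS27 averaged 787 ± 76.8 CPM in -Asn+Fe, 907 ± 214 CPM in -Asn and 568 ± 9.26 CPM in +Asn, and rose by 0.68 ± 0.13 in -Asn (adjusted p = 0.000263). RPS26, RPL4 and RPL8 fell by 0.74, 0.31 and 0.31 in -Asn against +Asn. The counts of this list are given only with -Asn replicate 1 included. Processed pseudogenes of these genes can take or give reads, so single values are uncertain.

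**Figure D4:**
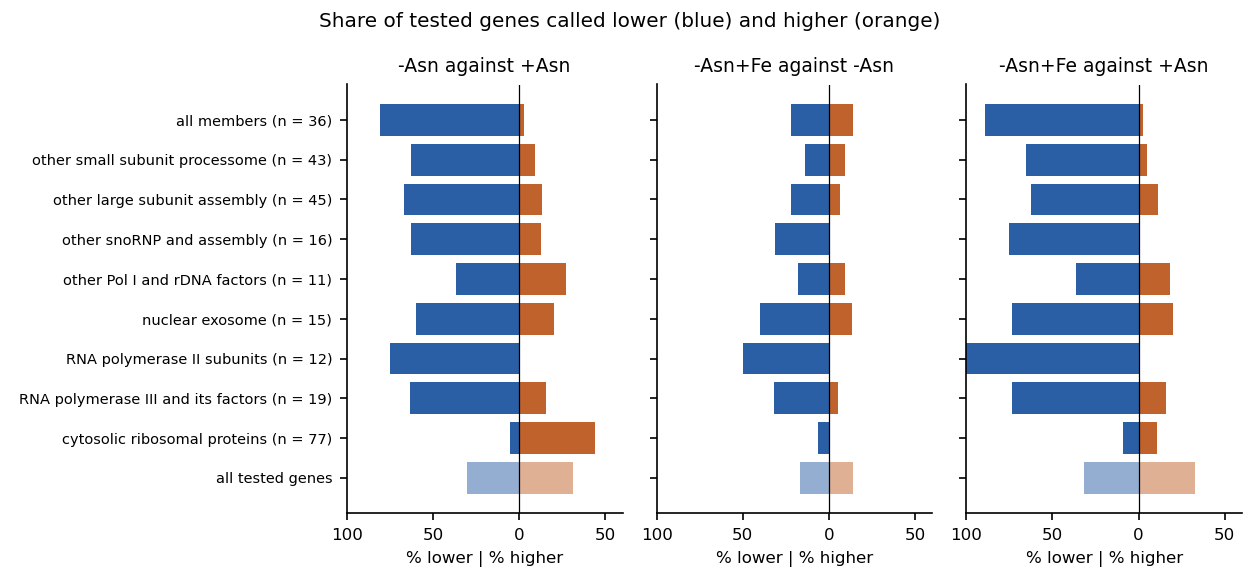
Percent of tested genes of each list called lower (blue, to the left) and higher (orange, to the right) in each comparison, with the number tested in brackets and all 17939 tested genes in the bottom row. In the left panel the lower share is 80.6% for the 36 pathway genes and 30.2% for all genes, and ribosomal proteins are the one list shown with more higher than lower calls.

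In the list of genes of nucleolar stress and the p53 response, CDKN1A and MDM2 changed between each pair of media. CDKN1A, the cell cycle inhibitor p21, averaged 338 ± 14.3 CPM in -Asn+Fe, 190.2 ± 13.2 CPM in -Asn and 60.6 ± 8.79 CPM in +Asn, and rose by 1.65 ± 0.09 in -Asn against +Asn and by a further 0.83 ± 0.09 in -Asn+Fe against -Asn (adjusted p = 1.57e-10 and 3.28e-06 in edgeR). MDM2, the ligase that degrades p53, averaged 702 ± 36.2, 312 ± 46.4 and 375 ± 13.1 CPM in -Asn+Fe, -Asn and +Asn. It fell by 0.27 ± 0.09 in -Asn against +Asn (adjusted p = 0.019) and rose by 1.17 ± 0.09 in -Asn+Fe against -Asn (1.03e-07). Of the 9 tested genes of this list, 4 rose and 2 fell in -Asn against +Asn, 5 rose and 1 fell in -Asn+Fe against -Asn, and 8 rose and 1 fell in -Asn+Fe against +Asn. Shares of all genes that rose and fell were 31.0% and 30.2%, 14.0% and 16.8%, and 32.9% and 31.9% in the same order.

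Few H3K4me3 regions at the 5′ ends of the pathway genes differed in width between media. The peak table gives positions of peaks per library and no read counts, so the covered width of each region was the quantity compared. At most 1 kb from their outer 5′ end, 35 of the 37 genes had an H3K4me3 region, and all 35 were called in 9 of 9 libraries. The 2 others, EBNA1BP2 and GNL3, had a region at their RefSeq start, also in 9 of 9 libraries. For POLR1C, WDR12, NCL and PES1 the outer 5′ end lay far from the RefSeq start, as at chr22:30607083 against chr22:30591910 for PES1. Regions of these genes need not mark the promoters whose sequence was searched. In -Asn against +Asn, 1 of the 35 regions was wider and 0 were narrower (limma, adjusted p under 0.05; 7 of 35 at an unadjusted p under 0.05), while 14.6% of all 13883 regions were wider and 1.45% narrower. The median log2 width change was -0.01 over the 35 regions and 0.09 over all regions. None of the 35 passed in -Asn+Fe against -Asn, 1 had an unadjusted p under 0.05, and 0% of all regions were called wider and 0% narrower (1042 at an unadjusted p under 0.05). Between -Asn+Fe and +Asn, 2 were wider and 1 narrower, against 11.7% and 1.92% of all regions.

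Centring each library on its median width changed these counts. All regions then gave 8.84% wider and 7.48% narrower in -Asn against +Asn, with 0 of the 35 wider and 9 narrower. Between -Asn+Fe and +Asn the shares were 9.05% and 7.58%, with 0 of the 35 wider and 7 narrower. Widths that did not pass before centring and did after it were those of POLR1B, MYBBP1A, NOP56, WDR43, WDR3, BYSL, NOP2, NOP16 and PUS7 in -Asn against +Asn, with log2 values between -0.24 and -0.14.

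The region at NOP58 (chr2:202264657-202268396, hg38) passed in both comparisons with +Asn, narrowly in that of -Asn+Fe. It covered 3396, 3613 and 3538 bp in -Asn+Fe, 3625, 3625 and 3586 bp in -Asn, and 3175, 3311 and 3217 bp in +Asn, so that both asparagine-free media lay above +Asn. The change was 0.16 ± 0.04 in -Asn (adjusted p = 0.015 in limma) and 0.12 in -Asn+Fe against +Asn (0.0496), and it did not pass after centring. In -Asn it also did not pass without +Asn replicate 1 or 3 (0.0527 and 0.0507), and in -Asn+Fe it did not pass with the replicate block (0.0834) or without any 1 of the 9 libraries (0.0503 to 0.143). RNA of NOP58 fell in the same comparisons, as given above. WDR12 (1896, 1817 and 1890 bp in -Asn+Fe, against 1671, 1725 and 1608 bp in +Asn) was wider by 0.16 (0.0471), in a region shared with the start of NBEAL1. That region lies at the outer 5′ end of WDR12 (chr2:203014798), far from its RefSeq start (chr2:202911673). NOLC1 (2015, 2139 and 2003 bp in -Asn+Fe, against 2261, 2349 and 2261 bp in +Asn) was narrower by 0.16 (adjusted p = 0.0496 in limma), and with the replicate number as a block neither passed.

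Large RNA changes went with small width changes. The UBTF region was the widest, 5739 bp from end to end, and covered 5551, 5318 and 5320 bp in -Asn+Fe, 5263, 5332 and 5445 bp in -Asn, and 5455, 5314 and 5440 bp in +Asn, all overlapping. Its width change was -0.02 in -Asn against +Asn, beside an RNA change of -1.72. POLR1C had the narrowest region (680.0 ± 48.5 bp in -Asn+Fe, 762 ± 130 bp in -Asn and 560.3 ± 17.6 bp in +Asn, SD, n = 3 each), and its 0.43 ± 0.14 in -Asn against +Asn did not pass (adjusted p = 0.064) but did without -Asn replicate 1 (0.0165), as did LAS1L (0.48, adjusted p = 0.0021, and in -Asn+Fe against +Asn 0.32, adjusted p = 0.00839). The POLR1C region was matched at the outer 5′ end (chr6:43509702) and not at the RefSeq start (chr6:43517089). The largest changes in -Asn+Fe against -Asn, at RRP12 (0.21), POLR1C (-0.15) and RRP9 (-0.12), did not pass. Over the 34 genes with both values, RNA and width changes had Pearson's r of 0.15, 0.27 and 0.24 and Spearman's rho of 0.17, 0.31 and 0.34 in -Asn against +Asn, -Asn+Fe against -Asn and -Asn+Fe against +Asn, as a description across genes that share the same libraries.

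**Figure D5:**
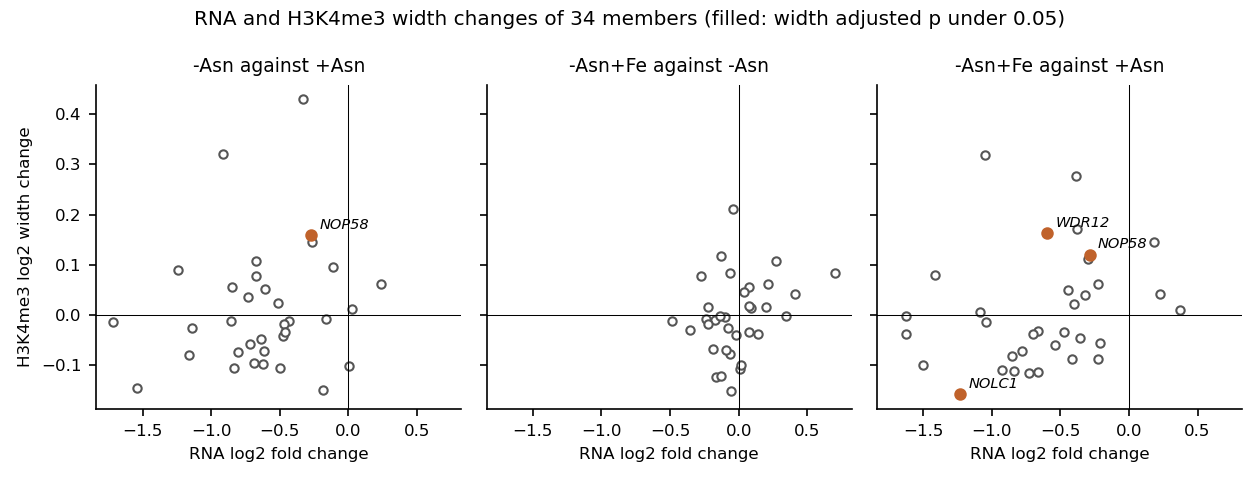
Log2 change of H3K4me3 width against log2 fold change of RNA for 34 genes in each comparison; filled points passed for width (limma, adjusted p under 0.05) and are named. In the left and right panels the points spread along the RNA axis to -1.72 and -1.63 while most widths stay near 0.

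The 3 members with the fewest counts, FBL, RRN3 and NOP2, each had an H3K4me3 region in 9 of 9 libraries. The FBL region covered 1655, 1562 and 1536 bp in -Asn+Fe, 1694, 1736 and 1722 bp in -Asn, and 1597, 1660 and 1650 bp in +Asn. Among coding genes with at most 25 counts over the 9 RNA libraries, 10.1% (665 of 6563) had a region in all 9 H3K4me3 libraries, against 44.9% of genes with 26 to 2000 counts and 89.9% of genes with more. FBL is in the first class by its counts, and RRN3 and NOP2 are in the next. How reads that fit both of its copies were counted is not given in the sources used here, and its part in the low count was not tested.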

How the data were processed

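Per the submitters' processing notes, the tools were bcl2fastq, MACS2 2.2.7.1, Picard 2.18.26, Bowtie2 2.4.4, STAR 2.7.2a and featureCounts (Subread 1.6.5), with the build hg38. The deposited RNA values are raw counts per gene, one column for each of 9 libraries, with the exon length of each gene in bases. The deposited H3K4me3 table holds other values, the positions of called peaks per library within merged regions, and no signal. The sources used here name no strand, multi-mapping or peak threshold setting. The 3 input libraries were not used here.

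Counts were filtered with filterByExpr, scaled by TMM and fitted over all 9 libraries with edgeR 4.0.16 (robust glmQLFit and glmQLFTest, R 4.3.3), with Benjamini-Hochberg adjustment over 17939 genes and a threshold of 0.05. SE is the log2 fold change divided by the root of the F statistic. CPM values use TMM factors. Log2 covered width of 13883 regions called in all 9 libraries was tested with limma 3.58.1 (trend). Scripts were tested on simulated data. DESeq2 1.42.0, other scalings, filters and left-out libraries were alternatives.

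The genes, lists, tests and motifs were chosen with earlier results of these data known, and 2 further motifs and the RefSeq start for regions were added after seeing the data. Values per library are given for up to 5 called genes per direction and comparison with the largest change, and for UBTF, POLR1A, POLR1B, RRN3, NCL, NPM1, FBL and NOP56. Other lists give up to 3 genes per direction, and MYC. Promoter sequences are from RefSeq (GRCh38.p14).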

Additional observations from a re-analysis of the deposited data

How the results depend on the processing

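Over 18 other settings for RNA and the width settings, 26 of the 29 lower calls in -Asn against +Asn and 22 of the 32 in -Asn+Fe against +Asn held in each. Between -Asn+Fe and -Asn, 1 of 8 lower and none of 5 higher calls did. DESeq2 gave 30 lower genes in -Asn against +Asn. In that comparison the median was -0.48 with upper-quartile factors, -0.43 with library totals and -0.54 with a stricter filter (1 CPM or more in 3 libraries, mean of 5), and genes called higher numbered 2 with library totals and 0 with a tested minimum fold of 1.2 (glmTreat). Between -Asn+Fe and -Asn, lower genes numbered 5 with upper-quartile factors and 1 with glmTreat, and higher genes 2 without the count filter, 0 with glmTreat and 2 with only the libraries compared. The median was -0.0032 with upper-quartile factors and -0.0081 with library totals, and all called genes fell to 2323 with glmTreat, against 5526. Higher genes in -Asn+Fe against +Asn numbered 2 with upper-quartile factors, library totals, the stricter filter or only the libraries compared, and 0 with glmTreat. The median was -0.42, -0.37 and -0.49 with upper-quartile factors, library totals and the stricter filter, with which 7647 of 10119 tested genes were called, against 11609 of 17939. The direction reversed with library totals for MNT in -Asn against +Asn (0.0156) and, in -Asn+Fe against +Asn, for RRP12 (0.0290), NOP56 (0.0322), RPL27 (0.23, adjusted p = 0.04026 in edgeR) and RRP8 (0.19, adjusted p = 0.0233 in edgeR). The cause was not tested.

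Leaving out each library in turn gave, in -Asn against +Asn, 10038 to 11282 called genes, 0 to 1 higher and 29 to 31 lower pathway genes and medians of -0.66 to -0.62. In -Asn+Fe against -Asn it gave 4038 to 5418, 1 to 5, 2 to 8 and -0.0836 to 0.0031, the last without -Asn replicate 1. In -Asn+Fe against +Asn it gave 10831 to 12523, 0 to 2, 30 to 32 and -0.64 to -0.62. Regions wider numbered 0 to 3 in -Asn and 0 to 2 in -Asn+Fe against +Asn, and narrower 0 and 0 to 1.

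Wider regions in -Asn against +Asn numbered 2 by outer span, 0 after centring and 0 at the RefSeq start, and narrower ones 9 after centring. In -Asn+Fe against +Asn, wider regions numbered 0 after centring, 1 at a mean width of at least 500 bp and 0 at the RefSeq start. Narrower ones numbered 0 by outer span, 7 after centring, 0 at 500 bp and 0 at the RefSeq start. NOP58 and NOLC1 had no RefSeq window, so their width calls were left out at the RefSeq start and not tested again there. The motif share of 48.4% became 74.2% for CANNTG, 25.8% for CCGGAAGT (4.95% of all genes) and 3.23% for the ZBTB33 palindrome (0.505%).

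Libraries with the same replicate number did not deviate together (correlations of -0.08 to 0.07 for RNA and -0.21 to 0.09 for width, 9 pairs each). The labels do not say whether these libraries were prepared as sets, and the correlations cannot exclude it. With a replicate block, 29 and 32 genes fell against +Asn, and in -Asn+Fe against -Asn 1 rose and 6 fell; 0 regions were wider and 0 narrower in -Asn+Fe against +Asn.

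The counts of RRN3, NOP2 and FBL were low. With 3 libraries per medium, 1 line and 1 time, and no group with iron and asparagine, the effect of iron alone was not measured.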
